A study of Homo sapiens with 12 samples.

Results

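Fibrinogen is the plasma protein that thrombin cuts into fibrin, and it is built from 3 chains encoded by FGA, FGB and FGG. These chains were described here together with 5 other genes for proteins that the liver secretes: FGL1, APOH, AMBP, TF and TTR. The genes were chosen with earlier results of these data known, and every probe set annotated to them was taken, so the changes below describe the genes and are given with no p-value. They were 8 of the 19775 genes and 16 of the 54675 probe sets on the array, and 15 of the 16 probe sets passed the filter on low signal (log2 5 or more on at least 3 of the 12 arrays).

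The cells were A549, an established line from a human lung adenocarcinoma. They received 50 nM siRNA with a lipid reagent and were lysed 3 days later. One experiment compared 3 arrays of cells given an siRNA against FAM60A with 3 arrays of cells given a non-targeting siRNA, and the other compared 3 arrays of SDS3 knockdown with 3 non-targeting arrays of its own. The labels name a FAM60A siRNA and an Ambion non-targeting siRNA, the SDS3 reagent is not named in the labels used here, and the wells were plated in triplicate. Nothing in the labels says that the triplicates were separate cultures, so every error and p-value measures only the spread between these arrays, which may be technical. FAM60A (now SINHCAF) and SDS3 (now SUDS3) are subunits of the SIN3 histone deacetylase complex, which is recruited to promoters and removes acetyl groups from histones.

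Hepatocytes are the main source of all 8 proteins in the body. The 3 fibrinogen genes lie side by side on chromosome 4, and their transcripts are made together in liver under hepatocyte nuclear factors and C/EBP proteins. During the acute phase response interleukin-6 acts through its receptor chain gp130 and STAT3 to raise them. Lung epithelial cells can also make fibrinogen when stimulated with interleukin-6 and glucocorticoid.

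The starts of the 3 chain genes and of APOH are shown because these genes had the largest differences alongside FGL1. Each sequence is the 250 bases before the annotated start in RefSeq (GRCh38.p14), printed 5′ to 3′ on the gene's own strand. FGA covers chr4:154590743-154590992 on the minus strand, FGB chr4:154562730-154562979 on the plus strand, FGG chr4:154612657-154612906 on the minus strand and APOH chr17:66229416-66229665 on the minus strand. Capitals mark GTTAAT, a half-site of hepatocyte nuclear factor 1, and CTGGGA, the core of the interleukin-6 response element, each searched on both strands (ATTAAC and TCCCAG are the same letters on the other strand).
FGA: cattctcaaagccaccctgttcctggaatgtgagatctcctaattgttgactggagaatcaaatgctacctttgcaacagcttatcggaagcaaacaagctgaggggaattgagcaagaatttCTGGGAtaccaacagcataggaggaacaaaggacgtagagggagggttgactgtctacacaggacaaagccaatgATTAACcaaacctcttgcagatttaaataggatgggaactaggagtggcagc
FGB: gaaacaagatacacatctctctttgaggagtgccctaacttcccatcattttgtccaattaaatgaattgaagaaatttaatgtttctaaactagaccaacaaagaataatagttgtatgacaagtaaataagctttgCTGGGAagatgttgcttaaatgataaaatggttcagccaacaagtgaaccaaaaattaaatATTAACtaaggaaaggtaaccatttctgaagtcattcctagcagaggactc
FGG: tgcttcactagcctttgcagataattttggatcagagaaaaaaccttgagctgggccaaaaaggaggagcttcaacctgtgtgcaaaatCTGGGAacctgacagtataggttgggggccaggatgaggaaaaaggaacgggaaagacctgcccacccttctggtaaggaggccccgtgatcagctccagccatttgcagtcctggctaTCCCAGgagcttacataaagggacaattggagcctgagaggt
APOH: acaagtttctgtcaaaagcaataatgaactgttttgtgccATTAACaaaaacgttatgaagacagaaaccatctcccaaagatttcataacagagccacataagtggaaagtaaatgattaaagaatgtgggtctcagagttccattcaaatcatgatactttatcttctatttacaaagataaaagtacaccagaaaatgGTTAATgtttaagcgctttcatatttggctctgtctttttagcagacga

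FGA and FGB each held both motifs in the same order, with CTGGGA 127 and 112 bases and GTTAAT 52 and 51 bases before the start. FGG held CTGGGA on either strand, at 161 and 42 bases, and no GTTAAT in this window. APOH held GTTAAT at 210 and 49 bases and no CTGGGA. Among the 35116 RefSeq promoter windows of the same length, 6.23% held GTTAAT, 28.7% held CTGGGA and 1.29% held both. The windows of AMBP and TF held neither, and FGB and TF each had a second annotated start in the table. The motifs were chosen after the promoters had been seen, and a match describes letters and shows no binding.

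Signals are log2 values of the deposited intensities, and a change is the knockdown mean minus the mean of that experiment's own controls. The array medians were 186.01 to 192.56 on the linear scale in the FAM60A experiment and 96.815 to 98.318 in the SDS3 experiment, and levels were therefore not set against each other between experiments or probe sets. SINHCAF fell by 2.69 log2 units (15.5% of control left) with the FAM60A siRNA, and SUDS3 fell by 1.58 (33.4% left) with the SDS3 siRNA (limma, adjusted p = 7.76e-09 and 3.06e-06). In the SDS3 knockdown SINHCAF rose by 0.35 (limma, adjusted p = 0.00291), while SUDS3 differed by 0.040 in the FAM60A knockdown (adjusted p = 0.698). Of the 18621 genes tested, 6855 passed the 0.05 threshold in the FAM60A knockdown, 6439 in the SDS3 knockdown and 4716 (25.3%) in the difference between the changes. The mean of 45 spike-in probe sets differed by 0.030 and 0.20 (2-sided exact permutation p = 0.8 and 0.2), and the 18S ribosomal RNA probe sets by 0.28 and 0.53 (exact p = 0.1 each, the smallest that 3 against 3 arrays allow). The 5 epithelial markers (KRT8, KRT18, KRT19, EPCAM, CDH1) were at log2 7 or more in all groups. All 5 fell in the SDS3 knockdown (limma), where their summed linear signal was 42508 to 43775 against 51557 to 54705 in the controls. In the FAM60A knockdown EPCAM and CDH1 fell, KRT19 rose, and that sum was 55026 to 58310 against 59690 to 62761. In each knockdown 1 of the 5 fell by 2-fold or more (limma), against 0.58% and 0.924% of all genes. Of 5 markers of alveolar type 2 cells, the lung cell type that A549 resembles, 1 (ABCA3) rose and 0 fell in each knockdown (limma, with 1 and 0 lower at an unadjusted p under 0.05). Of the 8 hepatocyte markers 0 changed in the SDS3 knockdown (limma, with 0 at an unadjusted p under 0.05), and 3 (ALB, ASGR1 and AHSG) fell in the FAM60A knockdown. Only 1 of the 8 had a mean of log2 7 or more in each SDS3 group, so a fall there could have been missed. In the FAM60A controls and knockdown 4 and 5 did. The sum of the 8 markers was 1421 to 1504 in controls against 1367 to 1397 in the FAM60A knockdown, and 620.2 to 649.5 against 617.3 to 643.7 in the SDS3 knockdown. Albumin, the most abundant hepatocyte product, was at a mean of 5.68 in the FAM60A controls and 4.10, under the filter, in the SDS3 controls. Of 5 fibroblast markers 1 rose and 1 fell in the FAM60A knockdown and 2 rose and 1 fell in the SDS3 knockdown. Of 2 leukocyte markers tested 1 fell in the SDS3 knockdown, and 0 of 4 endothelial markers changed in either knockdown (limma, also 0 at an unadjusted p under 0.05). The arrays measured RNA from whole wells, so fewer cells of a type and less RNA per cell cannot be told apart.

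FGA encodes the Aα chain, from which thrombin releases fibrinopeptide A. On its brightest probe set, 205650_s_at, the FAM60A controls read 11.98, 11.73 and 11.95 and the knockdown arrays 9.97, 9.77 and 10.14. The SDS3 controls read 10.33, 9.89 and 9.94 and the knockdown arrays 7.68, 7.77 and 7.87. No knockdown array reached any of its controls in either experiment, and FGA was the member with the largest change in both. The change was −1.93 (SE 0.101), or 26.2% of control, with the FAM60A siRNA and −2.28 (SE 0.116), or 20.5% of control, with the SDS3 siRNA. A second probe set, 205649_s_at, gave −1.28 (SE 0.0837) and −1.85 (SE 0.147). On it the SDS3 knockdown arrays read 5.03, 4.69 and 5.30, close to the filter, against 6.97, 6.67 and 6.93 in the controls.

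The third FGA probe set, 231671_at, differed much less. It read 7.19, 7.30 and 7.20 in the FAM60A controls against 7.07, 7.0 and 6.85 in the knockdown, a change of −0.26 (SE 0.0718). In the SDS3 experiment it read 5.78, 5.83 and 5.79 against 5.61, 5.54 and 5.61, a change of −0.22 (SE 0.0553). The knockdown arrays were again all below the controls, but this probe set lay nearer to the filter than the brightest one and showed about the same shift in both knockdowns. The array names of the brighter pair end in _s_at, which marks probes that can match more than one transcript, and the FGA values therefore depend on which probe set stands for the gene.

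FGB encodes the Bβ chain, whose synthesis is held to limit how much fibrinogen hepatocytes assemble. Probe set 204988_at read 11.03, 10.64 and 11.02 in the FAM60A controls and 9.88, 9.83 and 10.00 in the knockdown. It read 10.14, 10.18 and 10.31 in the SDS3 controls and 8.21, 8.39 and 8.50 in the knockdown. The groups did not overlap, and FAM60A control 2 lay apart below the other controls of its group. The changes were −0.99 (SE 0.103), 50.3% of control, and −1.84 (SE 0.0842), 27.9% of control. The second probe set, 216238_s_at, gave larger changes, −1.26 (SE 0.0781) and −2.22 (SE 0.083). Its arrays read 10.76, 10.68 and 10.55 against 9.35, 9.34 and 9.53 with the FAM60A siRNA, and 9.39, 9.59 and 9.62 against 7.23, 7.42 and 7.28 with the SDS3 siRNA. Unlike those of FGA, both FGB probe sets showed a large difference in both knockdowns.

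FGG encodes the γ chain, which carries the platelet binding site and the sites where fibrin strands are crosslinked. Its single probe set, 219612_s_at, read 11.10, 10.79 and 11.02 in the FAM60A controls and 9.66, 9.57 and 9.94 in the knockdown. In the SDS3 experiment it read 9.52, 9.34 and 9.33 in the controls and 7.14, 7.21 and 7.26 in the knockdown. The groups were separated by far more than their own spread, with an SD of 0.162 in the FAM60A controls and 0.0626 in the SDS3 knockdown (n = 3 each). The changes were −1.25 (SE 0.108), 42.1% of control, and −2.20 (SE 0.0714), 21.8% of control.

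FGL1 encodes hepassocin, a secreted protein with a fibrinogen-like domain that does not join the fibrin clot and is a ligand of the T cell receptor LAG3. Probe set 205305_at read 10.97, 10.70 and 10.93 in the FAM60A controls and 9.99, 9.90 and 10.10 in the knockdown. The SDS3 controls read 11.03, 10.75 and 10.85 and the knockdown arrays 8.81, 8.76 and 8.74. The SDS3 knockdown arrays lay close together, with an SD of 0.0366 (n = 3), and no groups overlapped. The changes were −0.87 (SE 0.0857), 54.6% of control, and −2.11 (SE 0.0776), 23.2% of control. FGL1 lies on chromosome 8, apart from the fibrinogen locus.

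APOH encodes β2-glycoprotein I, a phospholipid-binding plasma protein that is the main antigen of antiphospholipid antibodies. Its brightest probe set, 205216_s_at, read 10.15, 10.02 and 10.18 in the FAM60A controls and 9.42, 9.29 and 9.75 in the knockdown. The SDS3 controls read 10.11, 9.87 and 9.78 and the knockdown arrays 7.98, 7.99 and 8.04. The FAM60A groups did not overlap, with knockdown array 3 nearest to the controls, and the SDS3 groups lay far apart. The changes were −0.63 (SE 0.108), 64.6% of control, and −1.92 (SE 0.0858), 26.5% of control. The other probe set, 231359_at, gave −0.094 (SE 0.064) and −0.39 (SE 0.072). On it the FAM60A controls at 7.77, 7.83 and 7.81 overlapped the knockdown arrays at 7.81, 7.65 and 7.67, whereas the SDS3 controls at 7.24, 7.38 and 7.39 lay above the knockdown arrays at 7.0, 7.0 and 6.84.

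**Figure D1:**
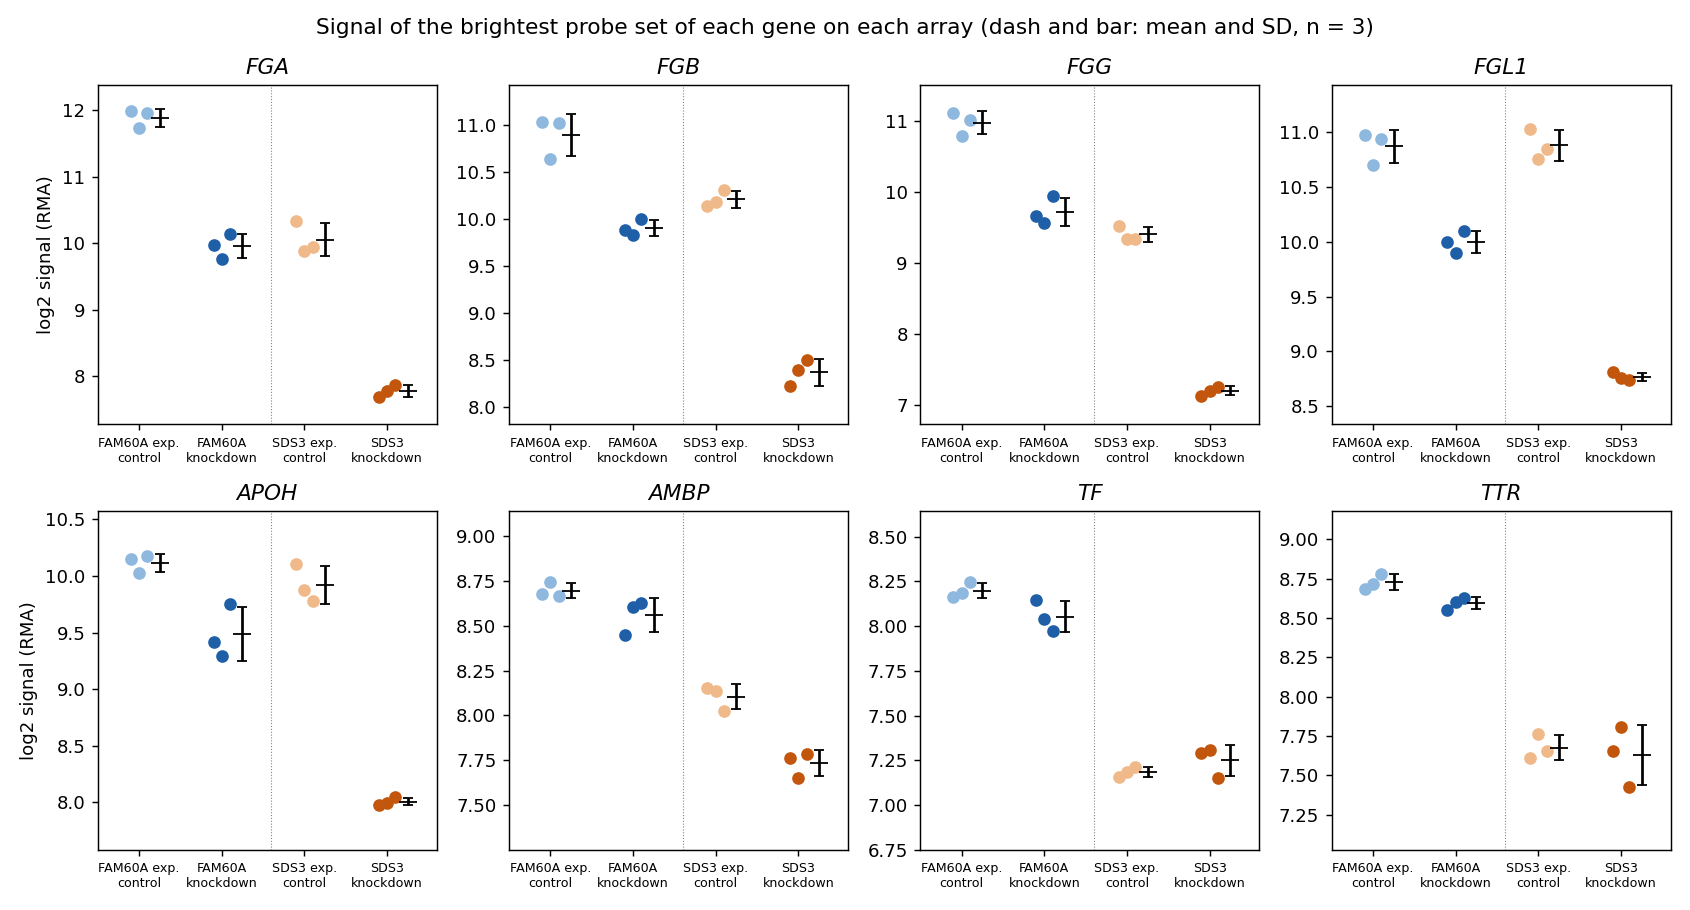
Log2 signal (vertical axis, own scale in each panel) of the brightest probe set of each of the 8 genes on the 12 arrays, in the 4 groups on the horizontal axis; dots are arrays, and the dash and bar are the mean and SD (n = 3). FGA, FGB, FGG, FGL1 and APOH lay below their controls on every knockdown array, with larger gaps in the SDS3 experiment, while the means of AMBP, TF and TTR differed by 0.37 at most.

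AMBP encodes a precursor that is cut into α1-microglobulin, a haem-binding protein, and bikunin, a protease inhibitor. Its brightest probe set, 205477_s_at, read 8.68, 8.74 and 8.67 in the FAM60A controls and 8.45, 8.60 and 8.62 in the knockdown, a change of −0.14 (SE 0.0664). In the SDS3 experiment it read 8.15, 8.13 and 8.03 against 7.76, 7.65 and 7.79, a change of −0.37 (SE 0.0654), 77.4% of control. The groups did not overlap in either experiment, but the gap in the FAM60A experiment was about as small as the spread of the controls. The other AMBP probe set, 214425_at, overlapped in both experiments, with changes of −0.043 and −0.072.

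TF encodes transferrin, the iron carrier of plasma. Its brightest probe set over all 12 arrays, 214064_at, read 8.16, 8.19 and 8.25 in the FAM60A controls and 8.15, 8.04 and 7.97 in the knockdown, a change of −0.15 (SE 0.0649). In the SDS3 experiment it read 7.16, 7.18 and 7.21 against 7.29, 7.31 and 7.15, a change of 0.064 (SE 0.0634). The SDS3 groups overlapped, and this was the only member whose brightest probe set had a positive change in either knockdown. That sign turned to −0.14 when arrays were scaled on the spike-in probe sets and to −0.19 with the mean of all TF probe sets. Probe set 214063_s_at, which was the brighter of the pair on the FAM60A arrays (control means of 8.44 against 8.20), gave −0.32 (SE 0.0922) and −0.18 (SE 0.0622), and 203400_s_at by −0.30 (SE 0.124) and −0.60 (SE 0.178). The last of these varied most between arrays of a group, with SDS3 controls at 6.12, 5.43 and 5.99 that overlapped knockdown arrays at 5.23, 5.47 and 5.03. The remaining TF probe set, 220109_at, was between 2.55 and 3.50 on all 12 arrays and did not pass the filter.

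TTR encodes transthyretin, which carries thyroid hormone and, with retinol-binding protein, retinol. Its probe set, 209660_at, read 8.68, 8.72 and 8.78 in the FAM60A controls and 8.55, 8.60 and 8.63 in the knockdown, a change of −0.13 (SE 0.0592). The SDS3 controls at 7.61, 7.76 and 7.66 overlapped the knockdown arrays at 7.66, 7.81 and 7.43, and the change was −0.046 (SE 0.0971). The 3 SDS3 knockdown arrays of TTR spread over a wider range than the controls on both sides.

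By the brightest probe set, 8 of the 8 genes had FAM60A knockdown arrays wholly below the controls, against 24.4% of all genes tested, and 6 of 8 in the SDS3 experiment, against 25.2%. An adjusted p under 0.05 in limma was reached by 9 of the 15 probe sets tested in the FAM60A knockdown and by 11 in the SDS3 knockdown, all lower, against 12.1% and 13.2% of all probe sets. The genes were chosen on these same contrasts, so nothing is read from those shares. Over the 8 genes the median change was −0.75 with the FAM60A siRNA and −1.88 with the SDS3 siRNA, beside −0.023 and 0.0064 over all genes tested.

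**Figure D2:**
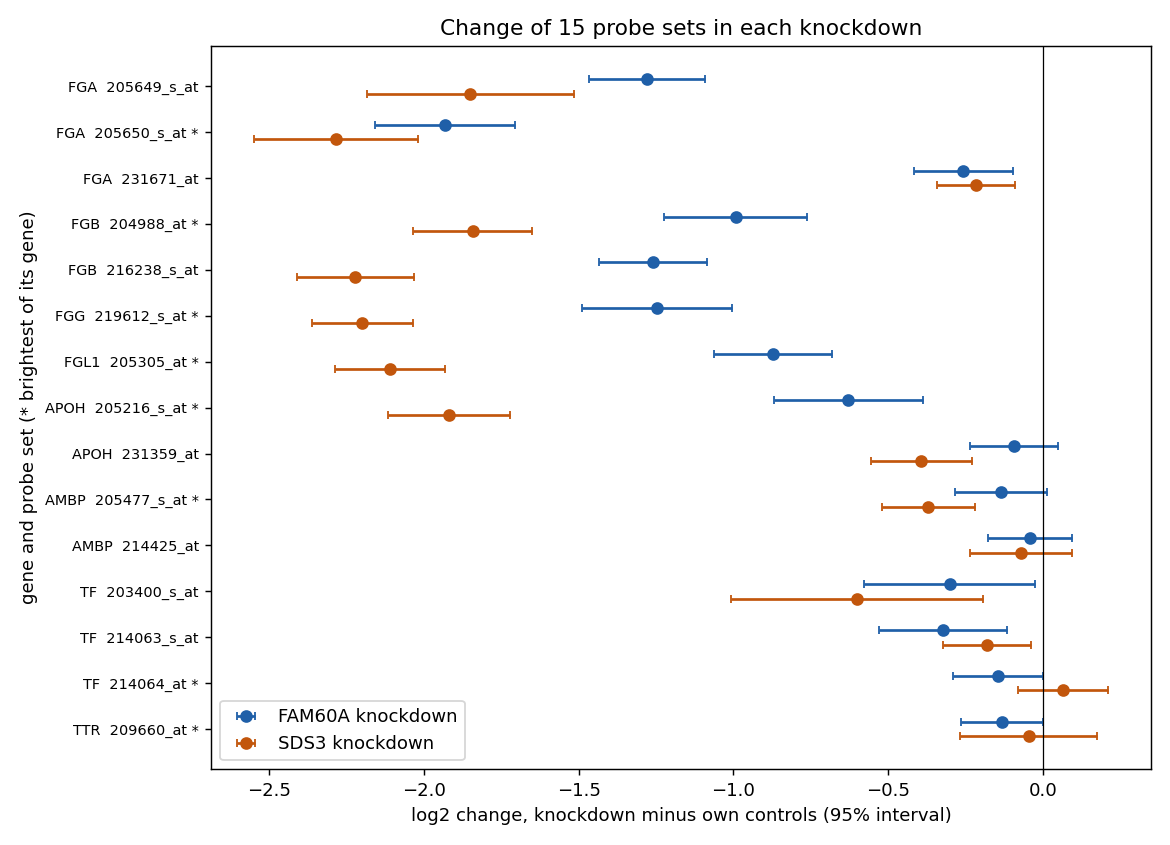
Log2 change of each of the 15 probe sets tested, knockdown minus own controls (horizontal axis), with 95% intervals from limma; blue is the FAM60A knockdown, orange the SDS3 knockdown, and an asterisk marks the brightest probe set of a gene. Probe sets of FGB lay together, whereas FGA 231671_at and APOH 231359_at lay far to the right of the brightest probe sets of the same genes.

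The changes in the SDS3 knockdown minus those in the FAM60A knockdown were compared gene by gene in a single fit of all 12 arrays. Each target had its own experiment, with array medians of 186.01 to 192.56 (FAM60A) and 96.815 to 98.318 (SDS3). Target and experiment therefore cannot be told apart in these differences. The FAM60A siRNA left 15.5% of its target and the SDS3 siRNA 33.4% of its own, and the part of this gap, and of the lower epithelial marker signal in the SDS3 knockdown, in the differences below was not tested. By the brightest probe set, APOH differed by −1.29 (SE 0.15, 95% interval −1.61 to −0.97) and FGL1 by −1.24 (SE 0.122, −1.50 to −0.97). The other APOH probe set, 231359_at, differed by only −0.30 (−0.50 to −0.094), so the size for APOH depends on the probe set. FGG differed by −0.95 (SE 0.141, −1.26 to −0.65) and FGB by −0.85 (SE 0.144, −1.16 to −0.54). On these brightest probe sets of the 4 genes the interval lay wholly below 0. The genes were chosen with this contrast known, so no interval or threshold in this paragraph is a test of it. FGA, with the largest change in each knockdown, had a smaller difference of −0.35 (SE 0.167), and its interval of −0.71 to 0.0089 included 0. Its other probe sets gave −0.57 (−0.96 to −0.18) on 205649_s_at and 0.041 on 231671_at. The difference of the brightest FGA probe set also depended on scaling and on 1 array. It was −0.52 with all spike-ins and −0.49 with hybridisation spike-ins alone, past the threshold in both, −0.19 after quantile normalization and −0.21 without SDS3 control 1.

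AMBP differed by −0.23 (95% interval −0.43 to −0.037), TF by 0.21 (0.019 to 0.40) and TTR by 0.087 (−0.16 to 0.34). These 3 intervals lay close to or across 0. The AMBP difference passed the 0.05 threshold (limma) with a filter at log2 7 (−0.23) and with hybridisation spike-ins alone (−0.37). It also passed without FAM60A knockdown 1 (−0.29) or SDS3 control 3 (−0.27). The TF difference passed after quantile normalization (0.24) and without FAM60A knockdown 1 (0.26) or SDS3 knockdown 3 (0.26). The TTR difference turned to −0.087 when arrays were scaled on the spike-in probe sets. Of the 15 probe sets, 7 had a lower difference at an adjusted p under 0.05 in limma, against 10.6% of all probe sets lower. As before, the rule used this contrast. The spacing of the 5 genes with large changes differed between the knockdowns. By the brightest probe set they ran from FGA (−1.93) through FGG (−1.25), FGB (−0.99) and FGL1 (−0.87) to APOH (−0.63) with the FAM60A siRNA. With the SDS3 siRNA they lay between −2.28 and −1.84 on the same probe sets. In the FAM60A knockdown the 95% intervals of neighbours overlapped from FGG to APOH, while that of FGA (−2.16 to −1.71) lay apart from that of FGG (−1.49 to −1.0). This order depends on the probe set: FGA gave −1.28 on 205649_s_at and −0.26 on 231671_at, and FGB −1.26 on 216238_s_at.

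Most of these 5 genes had their lowest or highest signal of a group on the same array, except for the lowest SDS3 control. FAM60A control 2 was the lowest of its 3 controls for 5 of the 5 genes (27.8% of all genes tested had their lowest control there), and FAM60A control 1 was the highest for 4 of 5 (27.1% of all genes). Among the FAM60A knockdown arrays, number 2 was the lowest for 5 of 5 (44.9%) and number 3 the highest for 5 of 5 (32.5%). In the SDS3 experiment control 1 was the highest for 4 of 5 (42.5%), but the lowest control was split, with 1, 2 and 2 of the 5 genes at controls 1, 2 and 3. Among the SDS3 knockdown arrays knockdown 1 was the lowest and knockdown 3 the highest for 4 of 5 each (35.3% and 43.5%). Relative to their own controls, the mean of the 3 fibrinogen chains was −1.42, −1.53 and −1.23 on the FAM60A knockdown arrays and −2.21, −2.10 and −2.01 on the SDS3 knockdown arrays. The control arrays lay between −0.20 and 0.12 on this scale. The genes share each array's RNA, so these counts describe the arrays and is no replicate of the changes.

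**Figure D3:**
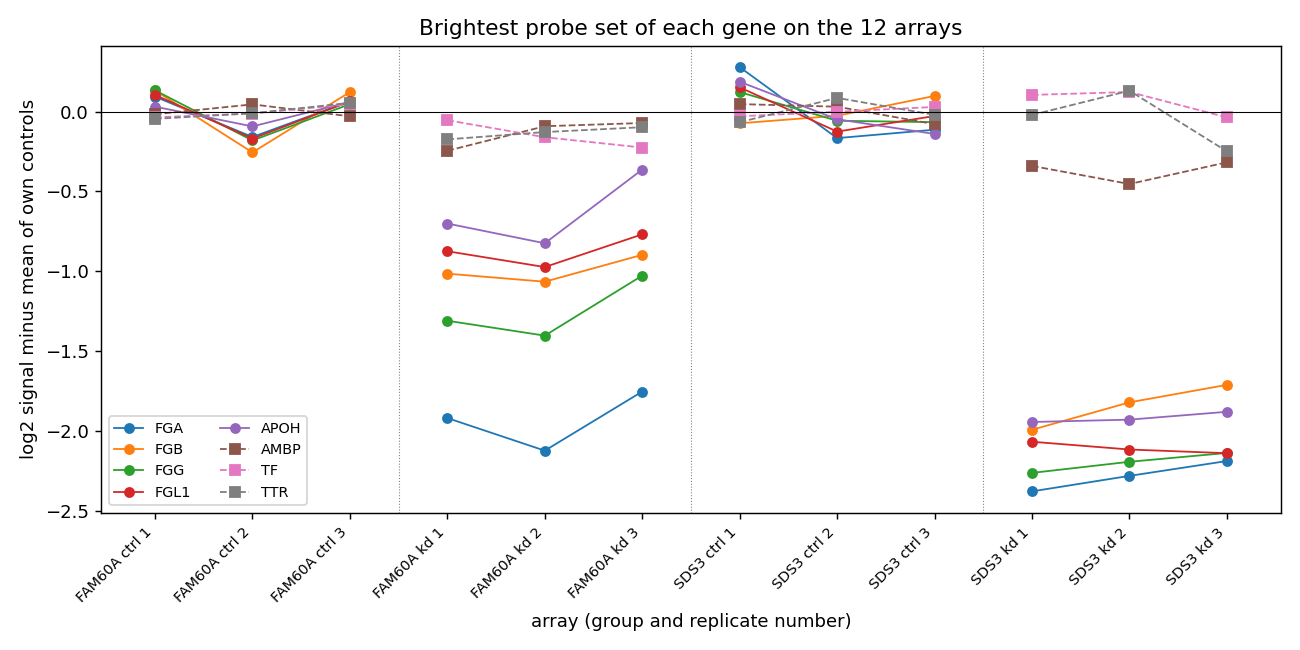
Log2 signal of the brightest probe set of each gene minus the mean of its own experiment's controls (vertical axis) on the 12 arrays (horizontal axis, group and replicate number); lines only join the points of a gene, and the numbers carry no order. Circles mark FGA, FGB, FGG, FGL1 and APOH, which lay near 0 in both control groups, spread from −0.36 to −2.12 on the FAM60A knockdown arrays and lay between −1.71 and −2.38 on the SDS3 knockdown arrays, and squares mark AMBP, TF and TTR, with a lowest point of −0.45.

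Likeness to the fibrinogen chains was measured for every gene tested as the root mean square difference, in log2 units over the 12 arrays, from the mean of FGA, FGB and FGG after each array had been set against its own controls. The chains enter that mean, so their own places (FGG 1, FGB 8, FGA 14) are a description. FGL1 stood at place 9 with 0.267 and APOH at place 22 with 0.399 among the 18621 genes. FGL1 and APOH were chosen with these contrasts known, so their places are a description too. AMBP, TTR and TF stood at places 1843, 5682 and 8512. The 5 other genes closest to the chains were CYP4F3 (0.132), SLC51B (0.139), PPEF1 (0.140), LINC00513 (0.190) and PLA2G4A (0.205). CYP4F3 encodes an ω-hydroxylase of leukotriene B4, SLC51B a subunit of the basolateral bile acid transporter, PPEF1 a phosphatase with EF-hand motifs and PLA2G4A the cytosolic phospholipase that releases arachidonic acid. CYP4F3 gave −1.48 in the FAM60A knockdown and −2.19 in the SDS3 knockdown, and PLA2G4A −1.02 and −2.14, close to the −1.25 and −2.20 of FGG.

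The nearest tested genes on each side of the fibrinogen genes, FGL1 and APOH in RefSeq were read on the same arrays. Genes that were not tested were passed over. PLRG1, a splicing factor gene that lies beside FGB at 12.6 kb, changed by −0.42 and −0.46 (limma, adjusted p = 0.000262 and 0.000263), against −0.99 and −1.84 for FGB. With the mean of all its probe sets PLRG1 gave −0.12 and −0.067 and no longer passed. NPY2R, a neuropeptide Y receptor gene 561.1 kb beyond FGG, gave −0.071 and 0.17 and did not pass (adjusted p = 0.342 and 0.0864). Next to FGL1, MTUS1 gave 0.22 and −0.88 (adjusted p = 0.0154 and 0.000141) beside −0.87 and −2.11 for FGL1 itself. Without probe sets of shared sequence the FAM60A value of MTUS1 was 0.0099 and no longer passed. PCM1, on the other side of FGL1, gave −0.064 and −0.33, values that turned to 0.36 and 0.29 without those probe sets. Beside APOH, CEP112 rose by 0.30 and 0.42 and PRKCA gave 0.22 and 0.10, whereas APOH was lower in both knockdowns. The calls of CEP112 and PRKCA were lost under spike-in scaling, where PRKCA gave −0.099 in the SDS3 knockdown. With the mean of all probe sets the FAM60A values of CEP112 and PRKCA were 0.064 and 0.0087 and no longer passed. SRPRB, which overlaps TF in the annotation, fell by 0.94 in the FAM60A knockdown (limma, adjusted p = 1.07e-06) and gave −0.046 in the SDS3 knockdown, while TF gave −0.15 and 0.064.

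Lists of genes related to the 8 members were read from the same fits, with 36.8% of all genes passing in the FAM60A knockdown (19.2% higher, 17.6% lower) and 34.6% in the SDS3 knockdown (15.8% higher, 18.8% lower). With arrays scaled on the spike-in probe sets, 915 genes were higher and 6848 lower in the SDS3 knockdown, in place of 2941 and 3498, and the median of all genes there was −0.198. The lists hold none of the 8 genes. Of 33 other coagulation and fibrinolysis genes, 9 rose and 2 fell with the FAM60A siRNA and 7 rose and 5 fell with the SDS3 siRNA, with medians of 0.013 and 0.0052, and spike-in scaling gave 6 and 0, and 4 and 14. The 3 fibrinogen chains, chosen on these contrasts, had changes of −0.99 to −2.28. In this list 0 genes fell by 2-fold or more in either knockdown (limma, also 0 at an unadjusted p under 0.05), against 0.58% and 0.924% of all genes. For a list of 33 genes 0 is near those shares, so nothing is read from it. PLAU, which activates plasminogen and so promotes fibrin breakdown, rose by 1.00 (SE 0.0554) and 1.28 (SE 0.0546), and THBD, the thrombin receptor thrombomodulin, by 1.19 (SE 0.118) and 0.57 (SE 0.0599). PLAT, the tissue plasminogen activator, rose by 1.03 and 0.55, and PLAUR, the urokinase receptor, by 0.93 and 0.83 (limma, adjusted p at most 0.000468).

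Among 20 acute phase proteins measured beside the members, 3 rose and 2 fell in the FAM60A knockdown and 3 rose and 5 fell in the SDS3 knockdown, with medians of −0.013 and 0.037, and spike-in scaling gave 2 and 2, and 1 and 7. CP, the copper protein ceruloplasmin, changed by −0.99 (SE 0.112) and −1.53 (SE 0.135), the change most like those of the fibrinogen chains in this list. C3, the central complement component, rose by 0.80 and 0.76. The pentraxin PTX3 changed by −2.50 (SE 0.0785) and −0.68 (SE 0.0905), with a mean of 4.71 in the FAM60A knockdown that lay under the filter. Of 29 other hepatic secreted proteins, 6 rose and 5 fell with the FAM60A siRNA and 3 rose and 6 fell with the SDS3 siRNA, with medians of −0.036 and 0.020, and spike-in scaling gave 5 and 3, and 3 and 8. CFI, a complement protease, changed by −0.37 and −1.36 and SERPINA6, which carries cortisol, by −0.43 and −0.80 (limma, adjusted p at most 0.0371). LCAT, which esterifies plasma cholesterol, rose by 0.65 and 0.59, with a FAM60A value of 0.012 on a probe set of unshared sequence. RBP4, the retinol carrier that travels bound to TTR, changed by 0.54 and −0.47, while TTR gave −0.13 and −0.046.

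Of 22 genes of interleukin-6 family signalling, 11 rose and 3 fell in the FAM60A knockdown and 12 rose and 2 fell in the SDS3 knockdown, with medians of 0.22 and 0.17, and spike-in scaling gave 9 and 2, and 7 and 5. IL6ST, which encodes gp130, rose by 1.26 (SE 0.0624) and 1.76 (SE 0.0669), and the cytokine gene IL11 by 1.75 (SE 0.106) and 0.86 (SE 0.113). IL6R, the interleukin-6 receptor, changed by −0.81 and −0.84 (limma, adjusted p = 3.51e-06 and 0.000185), and IL6 rose by 0.42 and 0.90 (adjusted p = 0.000693 and 0.000575). The fibrinogen genes, which this pathway raises in liver, were lower in both knockdowns. The arrays did not measure the activity of the pathway, and a link to the fibrinogen genes was not tested. Among 21 transcription factors of hepatocytes, 1 rose and 8 fell in the FAM60A knockdown and 2 rose and 8 fell in the SDS3 knockdown, with medians of −0.094 and −0.16. Spike-in scaling gave 1 and 6, and 0 and 15, and without FAM60A knockdown 2 the FAM60A count of lower genes was 5. FOXA3 changed by −0.78 and −0.51, HNF4G by −0.70 and −0.48 and ONECUT2 by −0.50 and −0.42 (limma, adjusted p at most 0.0151). CEBPA changed by −0.19 and −0.75 and ATF5 by −0.19 and −0.59 (adjusted p at most 0.0477). FOXA1 changed by −0.57 in the SDS3 knockdown (adjusted p = 0.000608) and gave −0.086 in the FAM60A knockdown (adjusted p = 0.311). The 3 chains, chosen with these contrasts known, had changes of −0.99 to −2.28 on their brightest probe sets, and FGA probe set 231671_at gave −0.26 and −0.22. A link between these transcription factors and the chains was not tested.

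Of 20 iron and transferrin genes, 7 rose and 3 fell in the FAM60A knockdown and 7 rose and 5 fell in the SDS3 knockdown, with medians of 0.050 and −0.046, and spike-in scaling gave 6 and 1, and 4 and 10. STEAP3, which reduces the iron that transferrin delivers, rose by 2.15 (SE 0.0659) and 1.85 (SE 0.0838), and SLC25A37, a mitochondrial iron importer, by 1.06 and 1.61, while TF gave −0.15 and 0.064. SLC11A2, the iron transporter DMT1, rose by 1.10 and 1.01 (limma, adjusted p = 3.16e-07 and 6.26e-06). Of 16 relatives with a fibrinogen-like domain, 1 rose and 0 fell in the FAM60A knockdown (limma, also 0 lower at an unadjusted p under 0.05). In the SDS3 knockdown 2 rose and 1 fell. The medians were −0.025 and −0.011, and spike-in scaling gave 0 and 0, and 1 and 4. FGL1, chosen with these contrasts known, gave −0.87 and −2.11, so nothing is read from its distance to these medians. ANGPTL4, an inhibitor of lipoprotein lipase, rose by 1.40 in the SDS3 knockdown and by 0.21 in the FAM60A knockdown. The latter call was lost under spike-in scaling, quantile normalization and without FAM60A control 1, control 3, knockdown 2 or knockdown 3, at 0.15 to 0.20. The remaining SDS3 calls, ANGPT2 at −0.24 and FIBCD1 at 0.23, turned sign with the mean of all probe sets of each gene, and the calls were lost without SDS3 control 3, knockdown 1 or knockdown 3 (ANGPT2, −0.17 to −0.23) and without SDS3 control 2, control 3, knockdown 2 or knockdown 3 (FIBCD1, 0.18 to 0.24). Of 27 partners and receptors of the 8 proteins, 6 rose and 4 fell with the FAM60A siRNA and 4 rose and 4 fell with the SDS3 siRNA, with medians of 0.020 and 0.042, and spike-in scaling gave 5 and 2, and 2 and 8. THRB, a nuclear receptor for the thyroid hormone that TTR carries, changed by −0.81 and −1.36, and ITGA5, an integrin chain, rose by 0.65 in the FAM60A knockdown and gave −0.21 in the SDS3 knockdown (adjusted p = 0.0779). TNFAIP6, which moves heavy chains from the bikunin-containing inhibitor onto hyaluronan, rose by 0.55 and 1.80 (limma, adjusted p = 0.00657 and 7.11e-05). THBS1, thrombospondin 1, gave −0.048 with the FAM60A siRNA and rose by 0.86 with the SDS3 siRNA (limma, adjusted p = 0.855 and 2.93e-05). STRA6, the membrane receptor for RBP4, rose by 0.65 in the FAM60A knockdown, with 0.043 on a probe set of unshared sequence, and gave 0.042 in the SDS3 knockdown (adjusted p = 0.725).

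**Figure D4:**
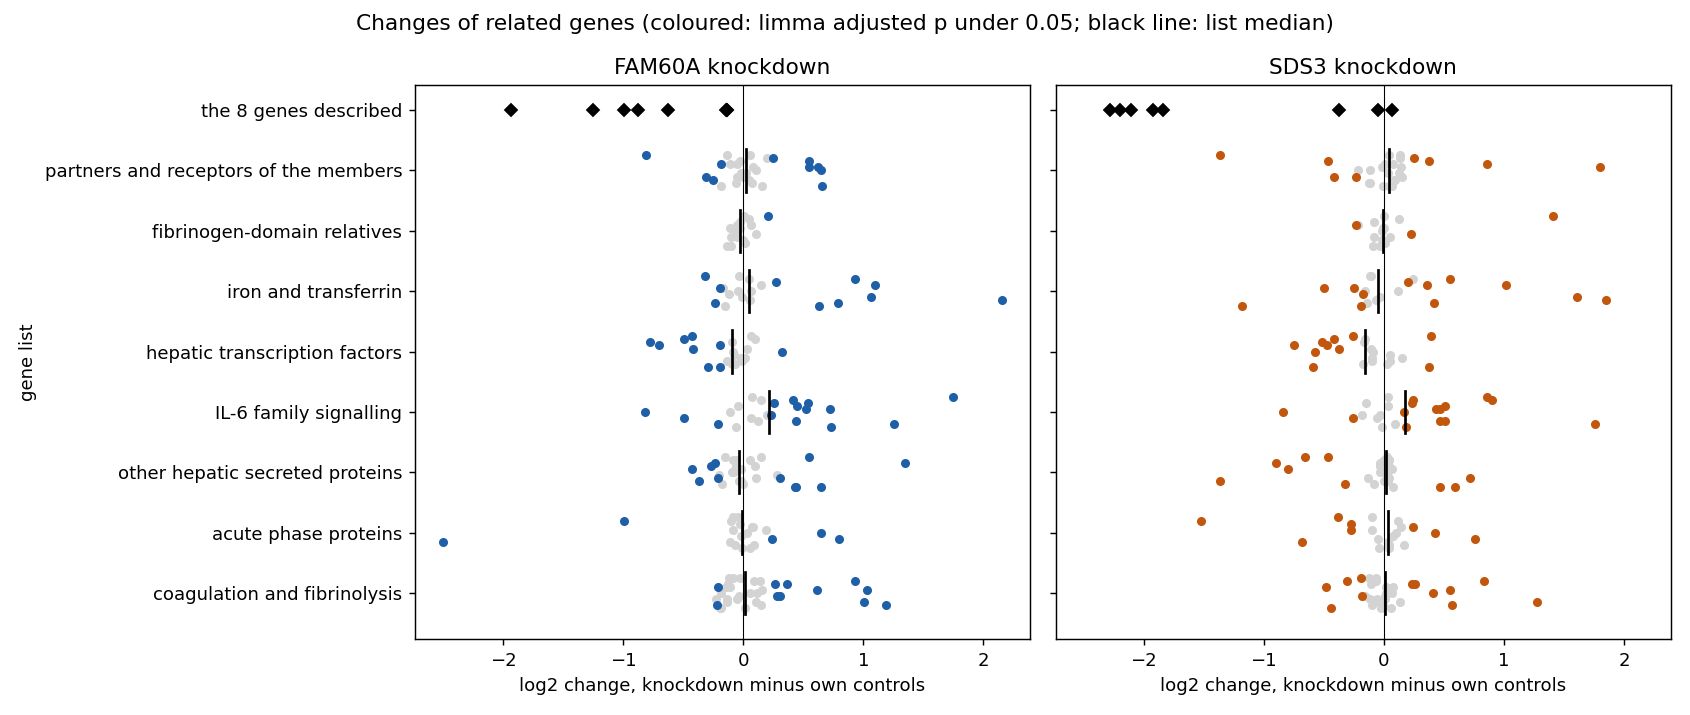
Log2 change of each gene tested in 8 lists of related genes (1 row each; knockdown minus own controls on the horizontal axis), with the FAM60A knockdown on the left and the SDS3 knockdown on the right; coloured dots passed an adjusted p of 0.05 in limma, grey dots did not, black lines are list medians and diamonds are the 8 genes described. The list medians lay between −0.16 and 0.22, with single genes such as PTX3 at −2.50 and STEAP3 at 2.15 in the FAM60A knockdown. The diamonds are genes chosen with these contrasts known: 5 of the 8 lay between −0.63 and −2.28, and the others between −0.37 and 0.064.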

How the data were processed

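RNA from 12 wells of A549 cells (4 groups of 3) was amplified from 1 ug of total RNA, labelled with biotin and hybridised to 1-colour arrays. Per the submitters' processing notes, the authors normalized the arrays with RMA, in a version that the labels do not name. The deposited values are linear intensities, and log2 was taken of them here. The file states no normalization across the 2 experiments, so each knockdown was fitted with its own controls, and the difference between knockdowns in 1 fit of 12 arrays.

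Tests used limma 3.58.1 (lmFit, eBayes, Benjamini-Hochberg) in R 4.3.3 on features with log2 5 or more on at least 3 arrays: 48286 probe sets, for the 8 genes, and 18621 genes, each by its brightest probe set, for all else. The code was tested on simulated data. Symbols came from the platform annotation, updated by Entrez identifier (41097 probe sets had 1 symbol, 1801 several, 11777 none listed). Promoters came from RefSeq, with windows for 6 of the 8 genes.

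The 8 genes and all lists were chosen with earlier results of these data known. Named by rule were the 8 genes with every probe set, both siRNA targets, up to 3 genes of each list per knockdown with the largest passing change, and the 5 genes most like the mean of the fibrinogen chains. Neighbours, markers and genes with opposite calls in the knockdowns were read in addition. Alternatives covered the filter, the probe set that stands for a gene, normalization, the variance model, a replicate block, the samples in the fit and leaving out each array. No 2 arrays held identical values. The number of arrays limits the precision.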

Additional observations from a re-analysis of the deposited data

Results flagged for a closer look

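Among 183 genes of the lists, 5 passed the 0.05 threshold in both knockdowns with opposite signs. These 5 also passed in the difference between the knockdowns (limma, SDS3 change minus FAM60A change). Over all genes tested, 19.2% were higher and 17.6% lower in the FAM60A knockdown, and 15.8% and 18.8% in the SDS3 knockdown. Opposite calls were not counted over all genes, so nothing is read from the count of 5. IGFBP1, which binds insulin-like growth factors, rose by 1.34 and fell by 0.90, a difference of −2.24 (adjusted p = 1.77e-07). ACO1, the iron-responsive aconitase, rose by 0.63 and fell by 1.18, a difference of −1.81 (adjusted p = 9.38e-08), and passed in neither knockdown nor in the difference without probe sets of shared sequence (0.24, −0.028 and −0.27). RBP4 rose by 0.54 and fell by 0.47, a difference of −1.01 (adjusted p = 1.97e-05). GATA6, a transcription factor, fell by 0.30 and rose by 0.37, a difference of 0.67 (adjusted p = 0.00114), and passed in neither knockdown with the mean of all its probe sets. Its FAM60A call was also lost without FAM60A control 1, control 3, knockdown 2 or knockdown 3 (−0.30 to −0.20). F8, coagulation factor VIII, rose by 0.28 and fell by 0.18, a difference of −0.46 (adjusted p = 0.00021), with the first call lost under spike-in scaling and the second with the replicate block (−0.18) and without SDS3 control 2, control 3, knockdown 1 or knockdown 2 (−0.19 to −0.16).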

How the results depend on the processing

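FGB, FGG and FGL1 kept their direction and their side of the threshold under every alternative that could change them (FGG and FGL1 have 1 probe set each, so the choice of probe set could not), with FGG at −1.36 to −1.17 in the FAM60A knockdown and −2.40 to −2.08 in the SDS3 knockdown. Without probe sets of shared sequence FGA gave −0.26 and −0.22 (difference 0.041), APOH −0.094 in the FAM60A knockdown and AMBP −0.072 in the SDS3 knockdown, the last 2 past no threshold. Other probe sets, which were dimmer, then stood for these 3 genes, and the part of their lower signal in this was not tested. That choice also gave PCM1 0.36 and 0.29 and ANGPT2 0.20 (SDS3). The mean of all probe sets gave, in the SDS3 knockdown, TF −0.19, ANGPT2 0.0023, FIBCD1 −0.044 and NPY2R −0.0013, and PCM1 0.041 in the FAM60A knockdown. Spike-in scaling moved the median of all genes in the SDS3 knockdown from 0.0064 to −0.198 and gave 4331 calls in the FAM60A knockdown (2147 higher, 2184 lower), 7763 in the SDS3 knockdown (915 higher, 6848 lower) and 3604 in the difference (337 higher, 3267 lower), against 6855 (3577 and 3278), 6439 (2941 and 3498) and 4716 (1861 and 2855). It gave TF −0.14, NPY2R −0.033 and PRKCA −0.099 in the SDS3 knockdown and TTR −0.087 in the difference. Hybridisation spike-ins alone, a scaling chosen after seeing the data, gave 3545 higher and 1717 lower, 1681 and 4365, and 544 and 3784, with TF −0.014 (SDS3) and a TTR difference of −0.050. In the FAM60A knockdown it gave 9 higher and 0 lower for coagulation, 7 and 2 for other hepatic proteins and for partners, and 7 and 1 for iron genes. Leaving out each array gave 5806 to 6406, 5193 to 6201 and 3945 to 4890 calls, and TTR then ranged from −0.13 to 0.055 (SDS3; highest without SDS3 knockdown 3), its difference from −0.0017 to 0.19 (lowest without SDS3 knockdown 2) and SRPRB from −0.086 to 0.018 (SDS3; highest without SDS3 control 1). Without 1 array, list counts of 5 or fewer moved by up to 3. The mean of all probe sets gave 11 higher coagulation genes and 9 higher partners in the SDS3 knockdown. Quantile normalization gave 2258 higher and 2666 lower calls in the difference. It also put AMBP (−0.20), TF (−0.17) and TTR (−0.19) past the threshold in the FAM60A knockdown. TF passed there without FAM60A knockdown 1 as well (−0.19). Same-numbered arrays did not deviate together (correlations −0.12 to 0.034), so the numbers were not taken to pair the arrays, and a replicate block gave 6239, 5848 and 4003 calls.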
